A study of Mus musculus with 2 samples.

Results

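Chemokines are small secreted proteins that steer leukocytes toward the cells releasing them. The 9 examined here, Cxcl1, Cxcl2, Cxcl3, Cxcl5, Cxcl12, Cxcl14, Cxcl16, Ccl2 and Ccl20, draw neutrophils, monocytes or T cells. They were taken as a named list, 9 of the 18595 genes in the table, and each was followed through all 19 deposited cell clusters of mouse esophagus to find which cells held its transcripts. The data are single-cell RNA-seq of esophagus without its muscle layers from mice that were hybrids of C57BL/6J and BALB/c. One library came from Keap1 floxB/floxB animals (control, 2472 cells) and one from K5CreERT2::Keap1 floxB/floxB animals (Keap1 cKO, 2381 cells), so both carried the floxed Keap1 alleles. KEAP1 targets NRF2, a regulator of antioxidant genes, for degradation, and K5CreERT2 is a ligand-activated Cre driven by the keratin 5 promoter, which is active in basal keratinocytes. No source used here gives the animals' age or number, or when Cre was activated.

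Cxcl1, Cxcl2, Cxcl3 and Cxcl5 are ligands of Cxcr2, the receptor that brings neutrophils out of blood into inflamed tissue. Ccl2 acts on Ccr2 of monocytes, Ccl20 on Ccr6 of interleukin 17 producing and other T cells, and Cxcl16 on Cxcr6 of tissue T cells. Cxcl12 signals through Cxcr4 and is removed by the scavenger Ackr3, and Cxcl14 is a constitutive chemokine of many epithelia. In stratified epithelia, keratinocytes exposed to interleukin 17, interleukin 1 or tumour necrosis factor transcribe Cxcl1, Cxcl5 and Ccl20 through the factor NF-kappaB.

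The 4 Cxcr2 ligands are neighbours in the mouse genome. On mm10 (GENCODE vM21) they lie on chromosome 5 within 146579 bp, in the order Cxcl5 (chr5:90759360-90761624), Cxcl3 (chr5:90786103-90789600), Cxcl1 (chr5:90891241-90893115) and Cxcl2 (chr5:90903871-90905938), all on the plus strand. Ccl20 lies at chr1:83116766-83119167 and Ccl2 at chr11:82035571-82037453 on the plus strand. Cxcl16 lies on the minus strand at chr11:70453983-70459984, Cxcl12 on the plus strand at chr6:117168535-117181367 and Cxcl14 on the minus strand at chr13:56288643-56296551. All 9 are annotated as protein-coding genes.

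Promoter sequence is shown for Cxcl1, Cxcl2, Cxcl3 and Ccl20, the 4 members with a match to the kappaB motif of NF-kappaB on either strand, because these neighbours and Ccl20 differed in the cell types that held most of their UMIs. Each run covers bases 250 to 31 before the start used by RefSeq on GRCm38.p6, 220 bases on the plus strand. For the 3 Cxcl genes this start differs from the GENCODE start given above. Capitals mark the kappaB matches, which overlap on opposite strands in the 3 Cxcl genes.
Cxcl1 (chr5:90890995-90891214): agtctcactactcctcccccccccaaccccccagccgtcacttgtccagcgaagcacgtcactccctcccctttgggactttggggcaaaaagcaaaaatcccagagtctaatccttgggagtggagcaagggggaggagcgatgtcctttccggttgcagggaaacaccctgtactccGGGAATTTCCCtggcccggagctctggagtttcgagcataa
Cxcl2 (chr5:90903649-90903868): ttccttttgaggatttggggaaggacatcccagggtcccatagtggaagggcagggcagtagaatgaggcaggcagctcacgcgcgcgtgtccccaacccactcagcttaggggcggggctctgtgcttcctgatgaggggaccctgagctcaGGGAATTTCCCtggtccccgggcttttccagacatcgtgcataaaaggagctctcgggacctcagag
Cxcl3 (chr5:90785851-90786070): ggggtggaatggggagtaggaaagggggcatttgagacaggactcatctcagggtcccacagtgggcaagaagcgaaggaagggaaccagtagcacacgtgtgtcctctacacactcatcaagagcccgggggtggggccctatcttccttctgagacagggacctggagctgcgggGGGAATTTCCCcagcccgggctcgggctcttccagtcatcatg
Ccl20 (chr1:83116516-83116735): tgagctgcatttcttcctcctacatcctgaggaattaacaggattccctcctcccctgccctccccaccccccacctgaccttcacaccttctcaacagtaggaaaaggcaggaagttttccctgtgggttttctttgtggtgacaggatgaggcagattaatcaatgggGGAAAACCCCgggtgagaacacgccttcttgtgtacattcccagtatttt
The longest run of letters common to the windows of Cxcl1, Cxcl2 and Cxcl3 is the 11 letters in capitals, GGGAATTTCCC. It spans bases -71 to -61 in Cxcl1, -97 to -87 in Cxcl2 and -73 to -63 in Cxcl3, counted from the RefSeq start. Of 32851 mouse windows of the same length, 13 held this run on either strand (0.0396%), and 6.34% held the kappaB motif. Both searches were chosen after the sequences had been seen. A RefSeq entry was found for 6 of the 9 members, and Cxcl12 and Cxcl14, the other 2 with an entry, held no kappaB match in this window. None of the 6 held the AP-1 letters TGANTCA (6.12% of windows, either strand) or the antioxidant response element letters TGACNNNGC (8.70% of windows). A match describes letters only.

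The authors assigned cells to 8 cell types. Clusters 1, 5 and 6 are fibroblasts in their annotation, 2 and 17 myeloid, 3, 11 and 16 T cells, 4, 9, 10, 13, 14 and 15 epithelial, 8 and 18 endothelial, 7 erythrocytes, 12 B cells and 19 myocytes. Cluster 12 did not look like B cells: Cd207, Ccr7, Ccl22 and Ccl17 were among its 10 leading genes, its dendritic or Langerhans cell markers summed to 23689 CPM (UMIs of a gene per 1000000 UMIs of the sum) in Keap1 cKO, and Cd79b and Ighm, the B cell markers in the table, summed to 91.0 CPM. It is therefore called cluster 12 here. Retnlg, Csf3r and Cxcr2, all neutrophil genes, led cluster 17, which held 4 control and 56 Keap1 cKO cells. Clusters 6 and 10 were shallow, with median UMIs (unique molecular identifiers, 1 per captured transcript) per cell from 772 to 1207, and cluster 16 mixed cycling cells. No member was among the 10 leading genes of any cluster. The libraries held 30501227 and 26036522 UMIs, with medians of 11294 and 8193 per cell, and shared 5 barcodes. Keap1 itself had 69.8 CPM in control and 44.6 CPM in Keap1 cKO epithelial cells (961 and 332 UMIs), and the 3' reads do not check the deleted segment, whose position none of these sources states.

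With 1 library per genotype no test between genotypes was possible, and a difference between the libraries cannot be told apart from one between animals or preparations. Intervals are exact 95% intervals for counting error only, and cells of a library are not replicates of a genotype. UMIs were summed per cluster and library. A gene counted as measured from 20 UMIs summed over the pair of libraries, and a 1.5-fold difference was the size used for counting.

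Summed over all cells, 7 members were at least 1.5-fold higher in the Keap1 cKO library and 2 were at least 1.5-fold lower. Over all 15558 measured genes, 25.3% were that much higher and 13.7% that much lower. The neutrophil chemokine Cxcl2 went from 2585 to 5836 UMIs (84.8 to 224.1 CPM), and Cxcl3 from 23 to 212 UMIs. Cxcl5 went from 64 to 277 UMIs, while Cxcl1 was lower, at 495 and 204 UMIs. The monocyte chemokine Ccl2 was also lower, at 1006 UMIs in control and 315 in Keap1 cKO. For the T cell ligands, Cxcl16 went from 372 to 1381 UMIs and Ccl20 from 20 to 85. Cxcl12 had 367 and 560 UMIs and Cxcl14 had 3 and 45. On the log2 scale of CPM the differences ran from -1.45 for Ccl2 (interval -1.63 to -1.26) to 4.14 for Cxcl14 (2.5 to 6.47).

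These totals mix the number of cells with the level in each cell, and the library composition differed widely. The control library had 40.5% fibroblasts and the Keap1 cKO library 18.0%, with epithelial cells 34.3% and 17.7%, T cells 5.70% and 24.7%, and myeloid cells 7.0% and 17.3%. In this split a level is the UMIs of the gene per cell of a cluster, not CPM, so it also carries depth. Median UMIs per cell in cluster 14, for example, were 3548 in control and 27848 in Keap1 cKO. Giving control levels the cluster shares of the Keap1 cKO library raised Cxcl2 from 1046 to 4276 UMIs per 1000 cells, above the 2451 observed in Keap1 cKO. Giving Keap1 cKO levels the control shares gave 684 UMIs per 1000 cells. For Cxcl2 the library total thus followed the number of cluster 17 and other myeloid cells, and the value of 4276 rests on the 4 control cells of cluster 17. Without cluster 17 the Cxcl2 difference of the whole library was 0.54 on the log2 scale, against 1.40 with it. Cxcl5 behaved the other way: with control levels and Keap1 cKO shares it was 21.5 UMIs per 1000 cells, near its 25.9 in control, and with Keap1 cKO levels and control shares it was 163. Ccl20 and Cxcl14 showed the same order as Cxcl5, at 2.77 against 83.3 and 1.5 against 51.9 UMIs per 1000 cells. Cxcl16 moved with both, at 232 with the shares alone and 390 with the levels alone, against 151 in control and 580 in Keap1 cKO. For Ccl2 the shares alone left 427 UMIs per 1000 cells, near its 407 in control, and the levels alone gave 219.

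A member was said to have a single source in a library when its highest cluster reached at least 3 times the CPM of every cluster of another cell type, over clusters of at least 20 cells. In control, 3 of 8 measured members met this (Cxcl2, Cxcl5 and Ccl20), and 19.3% of all measured genes did. In Keap1 cKO, 5 of 9 did (Cxcl2, Cxcl3, Cxcl5, Cxcl16 and Ccl20), and 21.4% of all measured genes did. Without the 3 highest cells of each cluster, Ccl20 lost this call in both libraries and Cxcl5 lost it in control. Cxcl3 lost its Keap1 cKO call, for cluster 17, with cells weighted equally and with cell types in place of clusters. Of its Keap1 cKO UMIs, epithelial cells held 55.2% and myeloid cells 40.6%. With cell types Cxcl5 also lost the call in control, where Cxcl3, Cxcl16 and Ccl2 gained it. The levels of each member in every cluster are drawn on a log colour scale.

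**Figure D1:**
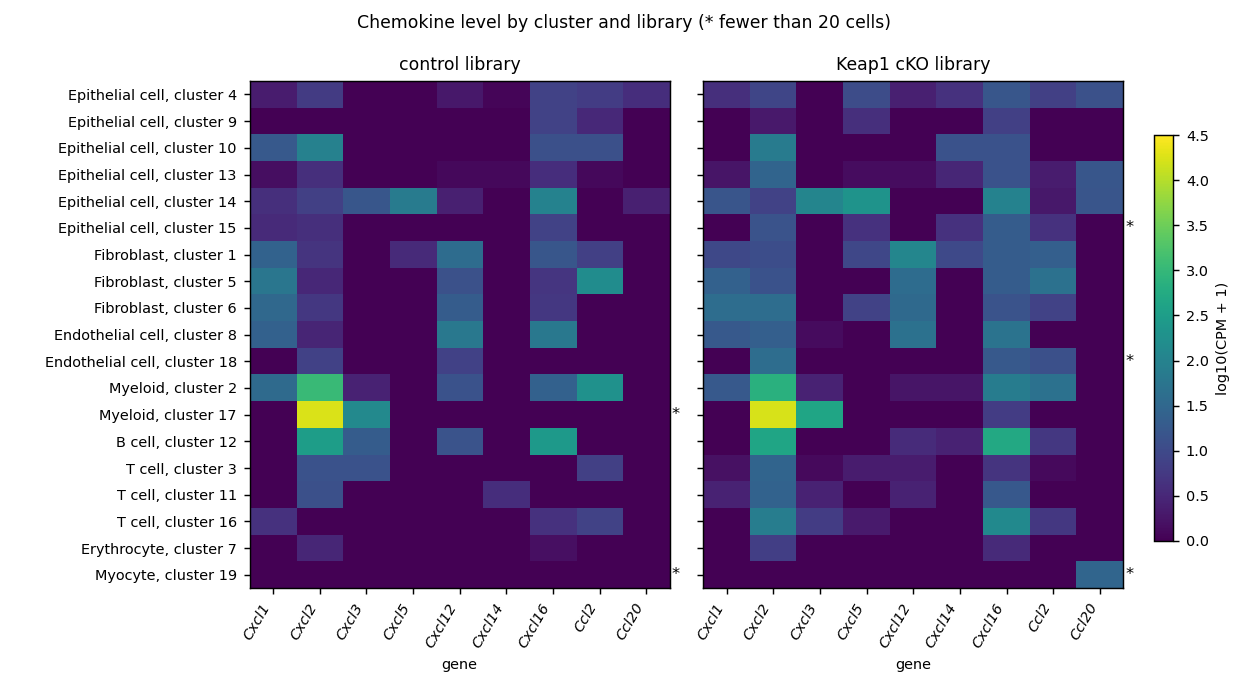
Level of the 9 chemokines (columns) in the 19 clusters (rows, grouped by the authors' cell type) in the control and Keap1 cKO libraries, as log10(CPM + 1) of summed UMIs. Cxcl2 is highest in myeloid clusters 2 and 17, Cxcl5 in epithelial cluster 14, Cxcl16 in cluster 12, Cxcl12 in fibroblast and endothelial clusters, and Ccl20 was seen in epithelial clusters and 1 myocyte.

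Cxcl2, a neutrophil attractant made by activated myeloid cells, was a myeloid transcript in both libraries. Myeloid clusters held 92.8% of its UMIs in control and 84.0% in Keap1 cKO. In macrophage-rich cluster 2 its level was 1124 CPM (interval 1075 to 1175) in control and 727 (694 to 762) in Keap1 cKO, a log2 difference of -0.63 (-0.72 to -0.54). The share of cluster 2 cells with a Cxcl2 UMI was 59.2% and 57.6%. With each cell thinned to 2000 UMIs these shares were 50% and 49.7%, so the lower level in Keap1 cKO lay in UMIs per cell and not in the share of cells.

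Cluster 17 carried Cxcl2 at 17472 CPM in its 4 control cells and at 16842 CPM in its 56 Keap1 cKO cells. Of the 402 control UMIs, 225 came from 1 cell that also held 475 keratinocyte and 463 neutrophil marker UMIs, and the other 3 cells held 177. In Keap1 cKO the 48 cells in which neutrophil markers led held 2859 of 3141 UMIs. It held 402 of 2585 control UMIs and 3141 of 5836 Keap1 cKO UMIs of the gene. All 4 control cells and 49 of the 56 Keap1 cKO cells had a Cxcl2 UMI. The neutrophil markers were all detected in these Keap1 cKO cells, at 104214 CPM in sum, and the receptor Cxcr2 had 133 UMIs there, in 42 of 56 cells. The ligand and its receptor were thus found in the same cluster, in most of its cells.

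Outside the myeloid clusters, cluster 12 was next for Cxcl2, with 314 CPM in control and 436 in Keap1 cKO. Of its 48 control UMIs, 40 came from 1 cell, whereas 56 of 178 Keap1 cKO cells had the transcript. In Keap1 cKO low Cxcl2 levels appeared in most other clusters: 10.5 CPM in fibroblast cluster 1, 12.8 in fibroblast cluster 5, 22.3 in endothelial cluster 8, 27.0 in T cell cluster 3 and 24.5 in T cell cluster 11. Control levels in the same clusters were 3.77, 2.11, 1.88, 12.5 and 11.5 CPM. Red blood cells, which should lack the gene, had Cxcl2 UMIs in 2.25% of control and 5.83% of Keap1 cKO cells, at 2.09 and 5.79 CPM and median depths of 10831 and 10272 UMIs. After thinning to 2000 UMIs the Keap1 cKO share was 2.24% in cluster 1, 2.40% in cluster 5, 2.84% in cluster 8 and 2.5% in red blood cells (interval 0.519% to 7.13%). Without thinning, the shares of clusters 1, 5 and 8 were 11.8%, 16.7% and 13.3%. At equal depth they lay within the interval of the red blood cells, as did T cell clusters 3 and 11 at 5.11% and 5.56%. The levels of clusters 5 and 8 and of T cell clusters 3 and 11 were above the red blood cells' interval of 2.33 to 11.9 CPM, and that of cluster 1 was within it. No expression is read from these shares, and the part of free RNA in them was not tested. In endothelial cluster 8, 36 of the 63 Keap1 cKO UMIs came from 3 cells, and without the 3 highest cells the log2 difference was 0.68 instead of 3.57. Suprabasal cluster 13 went from 3.09 to 27.3 CPM, and 43 of its 66 Keap1 cKO UMIs came from 1 cell.

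Cxcl3, the close relative of Cxcl2, was seen in 6 control cells and 26 Keap1 cKO cells. Its 23 control UMIs lay in clusters 2, 3, 12, 14 and 17, with 3 to 10 in each. In Keap1 cKO, cluster 17 held 82 UMIs in 12 of 56 cells (440 CPM, interval 350 to 546), and each of these 12 cells also held Cxcl2. Epithelial cluster 14, led by Muc5b, Reg3g and Krt19, held 117 UMIs in 5 of 40 cells, and 104 of these came from 1 cell. Its level there was 110 CPM, against 15.2 CPM in the control cells of the same cluster, where all 10 UMIs came from 1 cell. Cxcl3 had no UMI in any other epithelial cluster in either library.

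Cxcl5, an epithelial Cxcr2 ligand, was held mostly by cluster 14. That cluster had 48 of 64 control UMIs (72.7 CPM, interval 53.6 to 96.4) and 216 of 277 Keap1 cKO UMIs (204 CPM, 178 to 233). The number of cluster 14 cells with the transcript was 2 of 42 in control and 10 of 40 in Keap1 cKO. In control 47 of the UMIs came from 1 cell, and in Keap1 cKO 124 came from 1 cell. The control cell was also the one with 10 Cxcl3 UMIs, and the Keap1 cKO cell was the one with 104 Cxcl3 UMIs. That Keap1 cKO cell had 21791 UMIs in all. It held 100 UMIs of keratinocyte markers, 31 of dendritic or Langerhans markers, 4 of neutrophil markers and 1 of macrophage or monocyte markers. The cell with the next most Cxcl5 in Keap1 cKO, also of cluster 14, had 34 Cxcl5 UMIs. It held 507 UMIs of macrophage or monocyte markers and 249 of keratinocyte markers. Basal epithelial cluster 4 had 0 Cxcl5 UMIs in 313 control cells, which at 3 counts allows a share of cells with a UMI of up to 0.958%, and 27 UMIs in 5 of 93 Keap1 cKO cells. At a floor of 3 control UMIs this was at least 22.4-fold higher, but 18 of the 27 UMIs came from 1 cell in which fibroblast markers led, and the 91 cells in which keratinocyte markers led held 9. Fibroblast cluster 1 had 16 control UMIs, 15 of them in 1 cell, and 23 Keap1 cKO UMIs over 12 of 187 cells. Red blood cells had no Cxcl5 UMI in either library.

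Cxcl1 was the 1 of these 4 ligands whose library total was lower in Keap1 cKO. Fibroblasts held 79.8% of its UMIs in control and 41.2% in Keap1 cKO, where endothelial cells held 24.0% and myeloid cells 20.6%. By cell type its Keap1 cKO levels were close, at 15.96 CPM in fibroblasts, 16.1 in myeloid and 16.35 in endothelial cells, against 36.3, 34.99 and 18.97 in control. The highest Keap1 cKO cluster was shallow cluster 6, at 40.2 CPM from 6 UMIs. Its level in cluster 5 was 56.3 CPM (interval 49.0 to 64.3) in control and 23.9 (18.0 to 31.2) in Keap1 cKO. In cluster 1 the levels were 25.2 and 8.41 CPM, and in cluster 2 they were 35.5 and 17.3 CPM. The log2 differences were -1.24, -1.58 and -1.03, with each interval below 0, and without the 3 highest cells they were -1.36, -2.18 and -0.53, the last under the 1.5-fold size. The share of cluster 5 cells with a Cxcl1 UMI was 16.6% in control and 14.3% in Keap1 cKO, and of cluster 1 cells 11.4% and 8.02%. Thinned to 2000 UMIs, cluster 5 had 5.90% (control) against 4.80% (Keap1 cKO), with cluster 1 at 3.30% against 2.79%. Thinning to 1000 UMIs left Cxcl1 in 9 of 271 control but 0 of 126 Keap1 cKO cells of cluster 5. Cluster 1 then kept it in 12 of 545 against 0 of 185 cells. Since the intervals of the libraries overlapped at both depths, the difference in share stayed unsettled. Endothelial cluster 8 had 24.4 and 17.4 CPM, with an interval for the difference from -1.40 to 0.52, and the sign turned to 0.82 without the 3 highest cells. In basal cluster 4 the level was 1.23 CPM in control and 3.06 in Keap1 cKO, from 8 UMIs in 8 cells of each library.

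A list of 12 immediate early and heat shock genes, which respond to tissue handling as well as to inflammation, was chosen after these values had been seen. In cluster 5 it summed to 4667 CPM in control and 2420 in Keap1 cKO, and 9 of 12 genes were at least 1.5-fold lower (18.2% of all genes). In cluster 1 it was at 4087 and 2403 CPM with 8 of 12 lower (16.1%). Cluster 2 had 10153 and 10864 CPM with 1 lower (10.9%) and 1 higher (15.8%). In cluster 14, where Cxcl3 and Cxcl5 were higher, it was at 3164 and 4348 CPM with 7 of 12 higher (34.4%) and 1 lower (9.07%). Endothelial cluster 8 had 9 of 12 lower (9.84%) and 1 higher (26.1%), and cluster 12 had 6 of 12 lower (15.7%) and none higher (26.2%). Cornified cluster 9 had 7 of 11 higher (19.8%) and 1 lower (30.2%). Its part in the chemokine values of these clusters was not tested.

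Of the receptors for these 4 ligands, Cxcr2 was largely limited to cluster 17, with 133 of its 139 Keap1 cKO UMIs (713 CPM) and 11 of its 19 control UMIs. The related Cxcr1 had 0 UMIs in control and 3 in Keap1 cKO. Ackr1, the vessel receptor that carries inflammatory chemokines across endothelium, was highest in endothelial cluster 8, at 734 CPM in control and 880 in Keap1 cKO. The log2 difference of Ackr1 there was 0.26 (0.11 to 0.42), under the 1.5-fold size.

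**Figure D2:**
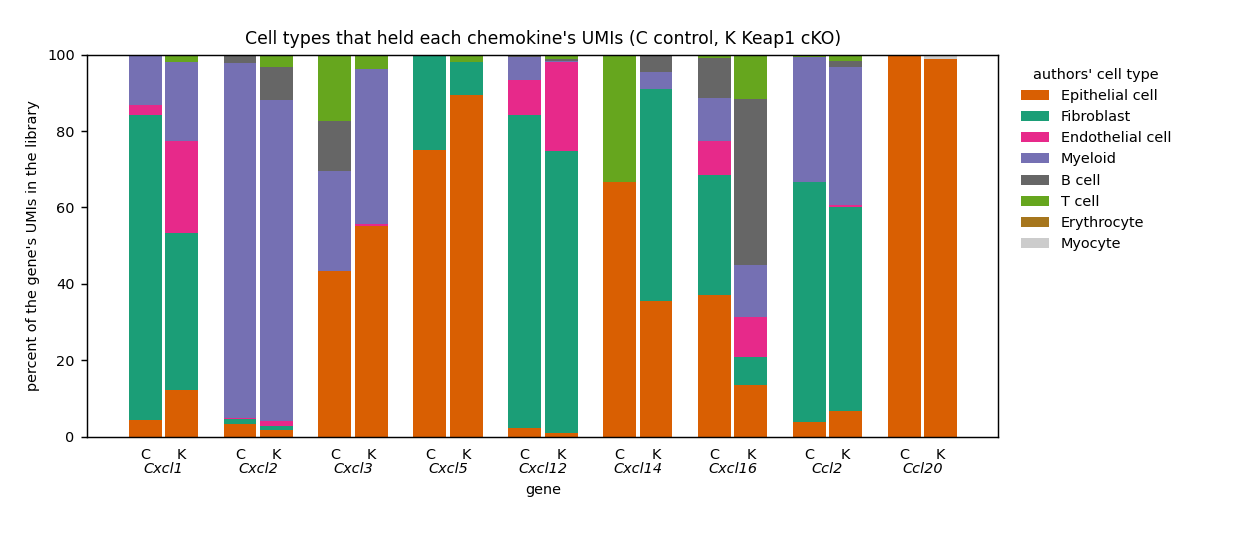
Share of each chemokine's UMIs (vertical axis, percent of the library's UMIs of that gene) held by the authors' cell types in control (C) and Keap1 cKO (K). Cxcl2 was myeloid in both libraries at 92.8% and 84.0%, fibroblasts held 79.8% and 41.2% of Cxcl1 and 82.0% and 73.9% of Cxcl12, and Cxcl16 went from 10.5% to 43.5% in the cells annotated as B cells (cluster 12).

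Ccl2, the main monocyte attractant, came from fibroblasts (62.7% of control and 53.3% of Keap1 cKO UMIs) and myeloid cells (32.7% and 36.2%). In cluster 2 it was at 185 CPM (interval 166 to 206) in control and 47.1 (38.8 to 56.5) in Keap1 cKO, and 40.2% and 15.4% of cells had a UMI. In fibroblast cluster 5 it was at 156 and 46.0 CPM, and the share of cells was 10.7% and 12.7%. That share was not thinned, and median UMIs per cell were 13929 in control and 17162.5 in Keap1 cKO. Of the 591 control UMIs in cluster 5, 433 came from 3 cells, among them 1 cell with 250. The log2 difference was -1.98 in cluster 2 and -1.76 in cluster 5, and without the 3 highest cells it was -1.78 and -1.48. Fibroblast cluster 1 went the other way, from 6.03 to 22.1 CPM (log2 difference 1.87, interval 1.28 to 2.48), and from 11 of 545 to 19 of 187 cells. Its cells were not thinned either, at median depths of 11930 and 14798 UMIs. The difference between clusters was not tested. In epithelial cells Ccl2 was at 2.91 and 2.82 CPM, and 29 of the 40 control UMIs came from 1 cell of cluster 4.

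The receptor Ccr2 was highest in cluster 2, at 882 CPM in control and 1406 in Keap1 cKO (log2 difference 0.67, interval 0.59 to 0.76). It was also found in T cell cluster 3, at 297 and 759 CPM. Cluster 2 therefore held both the receptor and a lower level of its ligand in the Keap1 cKO library. In epithelial cells Ccr2 had 2.40 and 12.3 CPM, next to 0.522 and 3.31 CPM in red blood cells. Of the 8 receptors, 4 were measured in epithelial cells. Ccr2, Cxcr6 and Ackr1 were at least 1.5-fold higher (17.5% of all genes) and Ackr3 lower (15.8%). The first 3 were also higher in red blood cells of Keap1 cKO, and the part of free RNA in their epithelial values was not tested.

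Ccl20, which keratinocytes release to draw Ccr6-bearing T cells and dendritic cells, was rare and epithelial. Its 20 control UMIs lay in 7 cells, 6 of cluster 4 and 1 of cluster 14. In Keap1 cKO, 84 of the 85 UMIs were in epithelial cells and 1 in a myocyte, over 8 cells in all. One cell of cluster 13 held 36 UMIs, one of cluster 4 held 31 and one of cluster 14 held 12. Among epithelial cells 7 of 848 (0.826%) and 7 of 422 (1.66%) had the transcript, and the highest cell had 12 UMIs in control and 36 in Keap1 cKO. Over all epithelial cells the level was 1.45 and 11.3 CPM, a log2 difference of 2.96 (2.24 to 3.74), which became 1.22 without the 3 highest cells of each cluster and library. Suprabasal cluster 13 had 0 UMIs in 134 control cells, so that its 37 Keap1 cKO UMIs were at least 21.4-fold higher at a floor of 3 UMIs.

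Ccr6, the receptor of Ccl20, was a T cell transcript. In cluster 3, led by Il17a, Trdc and Tcrg-V6 and so of gamma delta type genes, it was at 425 CPM in control and 82.7 in Keap1 cKO, in 44 of 59 and 130 of 378 cells. In cluster 11, led by Ccl5, Gzma and Cd8b1, it was at 51.7 and 283 CPM. The log2 differences were -2.36 (-2.67 to -2.05) and 2.45 (1.77 to 3.23), opposite in sign, and the difference between them was not tested. Over all cells annotated as T cells Ccr6 was at 130 and 119 CPM, in 37.6% and 40.9% of cells.

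Cxcl16, a chemokine that is also a membrane-bound scavenger receptor and holds Cxcr6-bearing T cells in tissue, had UMIs in 259 control and 427 Keap1 cKO cells. Cluster 12 was highest in both libraries, at 255 CPM (interval 181 to 349) in control and 525 (484 to 569) in Keap1 cKO. Its 34 control and 178 Keap1 cKO cells were under the number set for ratios, so this ratio was added after the values had been seen: the log2 difference was 1.04 (0.57 to 1.55). After thinning to 2000 UMIs, 50% of 12 control and 53.7% of 82 Keap1 cKO cells had a UMI. At 1000 UMIs the shares were 11.8% of 17 and 39.8% of 108 cells, and without thinning 29.4% and 46.6%, so the few control cells leave the difference in share unsettled. Within the Keap1 cKO cells of cluster 12, the 60 cells in which dendritic or Langerhans markers led held 237 of the 600 UMIs. In epithelial cluster 14 the sums gave 96.97 and 97.19 CPM, in 21 of 42 and 23 of 40 cells, but with every cell weighted equally the log2 difference was -1.16 instead of 0.003. Cycling cluster 16, annotated as T cells, held 126 Keap1 cKO UMIs in 10 of 48 cells, of which the 33 cells led by T cell markers held 1. In cluster 2 Cxcl16 went from 23.6 to 77.6 CPM (log2 difference 1.72, interval 1.23 to 2.23), in 20.1% and 27.0% of cells, or 6.96% and 11.5% thinned. Basal cluster 4 went from 6.77 to 15.3 CPM and suprabasal cluster 13 from 2.86 to 12.4 CPM, with log2 differences of 1.18 (0.52 to 1.83) and 2.12 (1.11 to 3.22), which were 0.56 and 2.14 without the 3 highest cells. Endothelial cluster 8 did not differ beyond its interval, at 61.97 and 49.97 CPM. Fibroblast cluster 1 was at 15.1 and 19.6 CPM, with an interval from -0.12 to 0.87, and cluster 5 at 3.96 and 19.5 CPM, where 21 of the 44 Keap1 cKO UMIs came from 1 cell. Red blood cells had 0.522 and 2.48 CPM.

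Cxcr6 was highest in T cell cluster 3, at 1209 CPM in control and 1526 in Keap1 cKO, with a UMI in 59 of 59 and 371 of 378 cells. Cluster 11 had 422 and 606 CPM. The log2 differences, 0.34 and 0.52, were under the 1.5-fold size. The libraries held 743 and 6876 Cxcr6 UMIs, or 301 and 2888 per 1000 cells. Control levels with Keap1 cKO shares gave 1325 and Keap1 cKO levels with control shares gave 826, so shares and UMIs per cell both moved the total. These levels are not adjusted for depth, and median UMIs per cell in cluster 3 were 5299 in control and 8224 in Keap1 cKO. Receptor levels are drawn by cluster on the same colour scale.

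**Figure D3:**
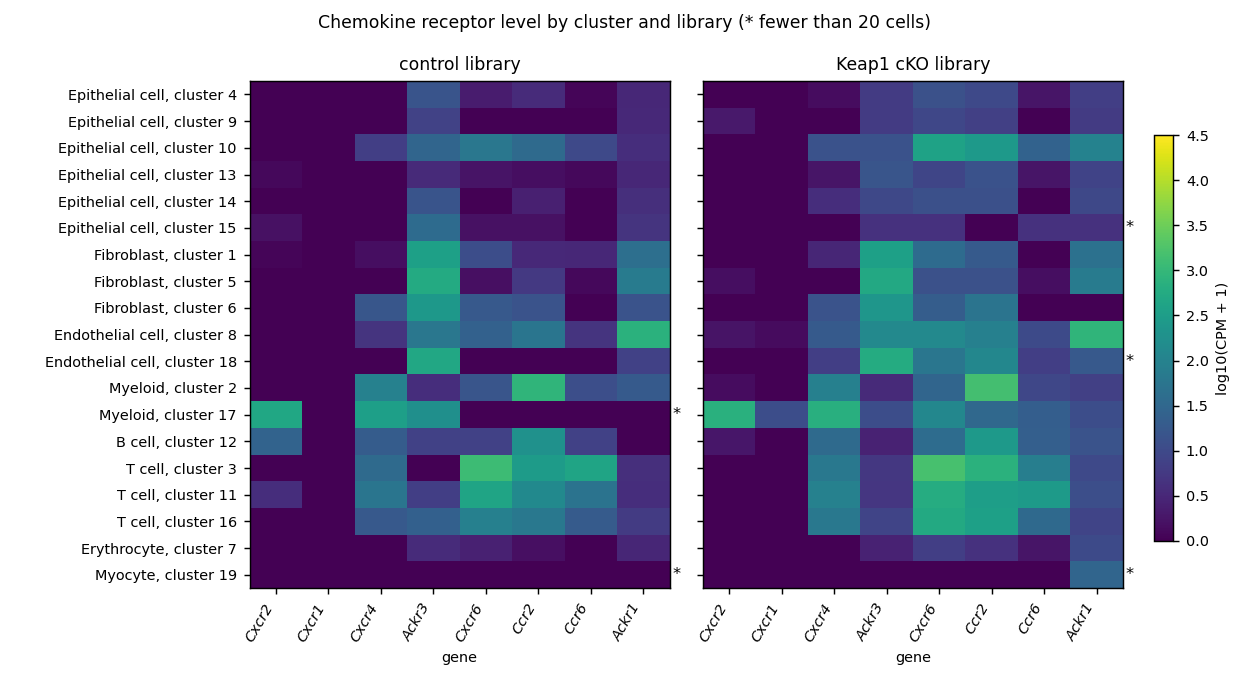
Level of the chemokine receptors (columns) in the 19 clusters (rows) of the control and Keap1 cKO libraries, as log10(CPM + 1). Cxcr2 is highest in cluster 17, Ccr2 in cluster 2, Cxcr6 and Ccr6 in T cells, Ackr3 in fibroblasts and Ackr1 in endothelial cluster 8. Ccr2 is also seen in T cells and in cluster 12 (190 and 273 CPM), and Ackr3 in cluster 18. Shallow cluster 10 of Keap1 cKO had Cxcr6 at 387 CPM. Fibroblasts held 55.2% of control and 10.1% of Keap1 cKO Ackr1 UMIs.

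Cxcl12, a stromal chemokine of resting tissue, was held by fibroblasts (82.0% of control and 73.9% of Keap1 cKO UMIs) and endothelium (9.26% and 23.2%). In fibroblast cluster 1 it was at 37.2 CPM (interval 32.7 to 42.2) in control and 114 (101.5 to 126.6) in Keap1 cKO, and 28.3% (24.5% to 32.2%) and 45.5% (38.2% to 52.9%) of cells had a UMI. Thinned to 2000 UMIs the shares were 7.52% and 16.8%. In cluster 5 it was at 11.9 and 37.6 CPM, in 36 of 271 and 57 of 126 cells. The log2 differences were 1.61 and 1.66, and without the 3 highest cells they were 1.2 and 1.75. Thinned shares in cluster 5 were 3.69% and 4.80% at 2000 UMIs, with intervals that overlap, but 0.738% and 7.14% at 1000 UMIs and 3.36% and 7.32% at 4000 UMIs. Endothelial cluster 8 had 62.0 and 46.1 CPM, a log2 difference of -0.43 (-0.99 to 0.17) that did not exceed counting error. In cluster 2 it had 22 control UMIs in 15 of 169 cells and 2 Keap1 cKO UMIs in 356 cells, a log2 difference of -3.91 (-7.04 to -1.88). Red blood cells and the muscle cells had no Cxcl12 UMI.

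Of its receptors, the scavenger Ackr3 was highest in the fibroblasts themselves, with 574 and 523 CPM in cluster 5 and 362 CPM in cluster 1 of both libraries. The signalling receptor Cxcr4 was at 92.3 and 91.2 CPM in cluster 2, and at 681 CPM in the Keap1 cKO cells of cluster 17. T cells had 31.6 and 69.3 CPM. Of its 229 control and 824 Keap1 cKO UMIs, myeloid cells held 75.1% and 42.2% and T cells 17.5% and 44.8%. Ackr3 was thus level in the clusters in which Cxcl12 was higher.

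Cxcl14 was barely detected: 3 UMIs in 3 control cells and 45 UMIs in 19 Keap1 cKO cells. One fibroblast of cluster 1 held 23 of the 45. The other Keap1 cKO cells included 6 of cluster 4 with 9 UMIs and 5 of cluster 13 with 5 UMIs, against 1 UMI in each of these clusters in control. In cluster 1 the control had 0 UMIs in 545 cells, and the Keap1 cKO level was at least 19.4-fold higher at a floor of 3 UMIs, which rests on that 1 fibroblast.

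Within the 12 clusters that had at least 50 cells per library, 33 of 108 pairs of a member and a cluster were measured. Of these, 19 were at least 1.5-fold higher in Keap1 cKO and 7 at least 1.5-fold lower. Over all measured genes the share higher ran from 13.2% in cluster 5 to 26.3% in cluster 10, and the share lower from 9.34% in cluster 11 to 30.2% in cluster 9. In fibroblast cluster 1, 5 of 7 measured members were higher (13.9% of all genes) and 1 was lower (16.1%). In cluster 2, 1 of 5 was higher (15.8%) and 4 were lower (10.9%). Cluster 5 had 3 of 5 higher (13.2%) and 2 lower (18.2%). Cluster 4 had 4 of 5 higher (18.9%) and none lower (18.2%), and cluster 13 had 3 of 3 higher (14.3%) and none lower (15.4%). Endothelial cluster 8 had 1 of 4 higher (26.1%) and none lower (9.84%). In T cell clusters 3 and 11, Cxcl2 was the 1 measured member and was higher in both (21.6% and 23.2% of all genes). Of the 19 higher pairs, 7 were Cxcl2 in clusters outside the myeloid cells, next to the higher Cxcl2 level in red blood cells given above. No member was measured in cornified cluster 9, where 19.8% of all genes were higher. Of the clusters added later, cluster 12 had 1 of 2 higher (26.2%) and cluster 14 had 2 of 3 higher (34.4%), with no member lower in either (15.7% and 9.07%).

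**Figure D4:**
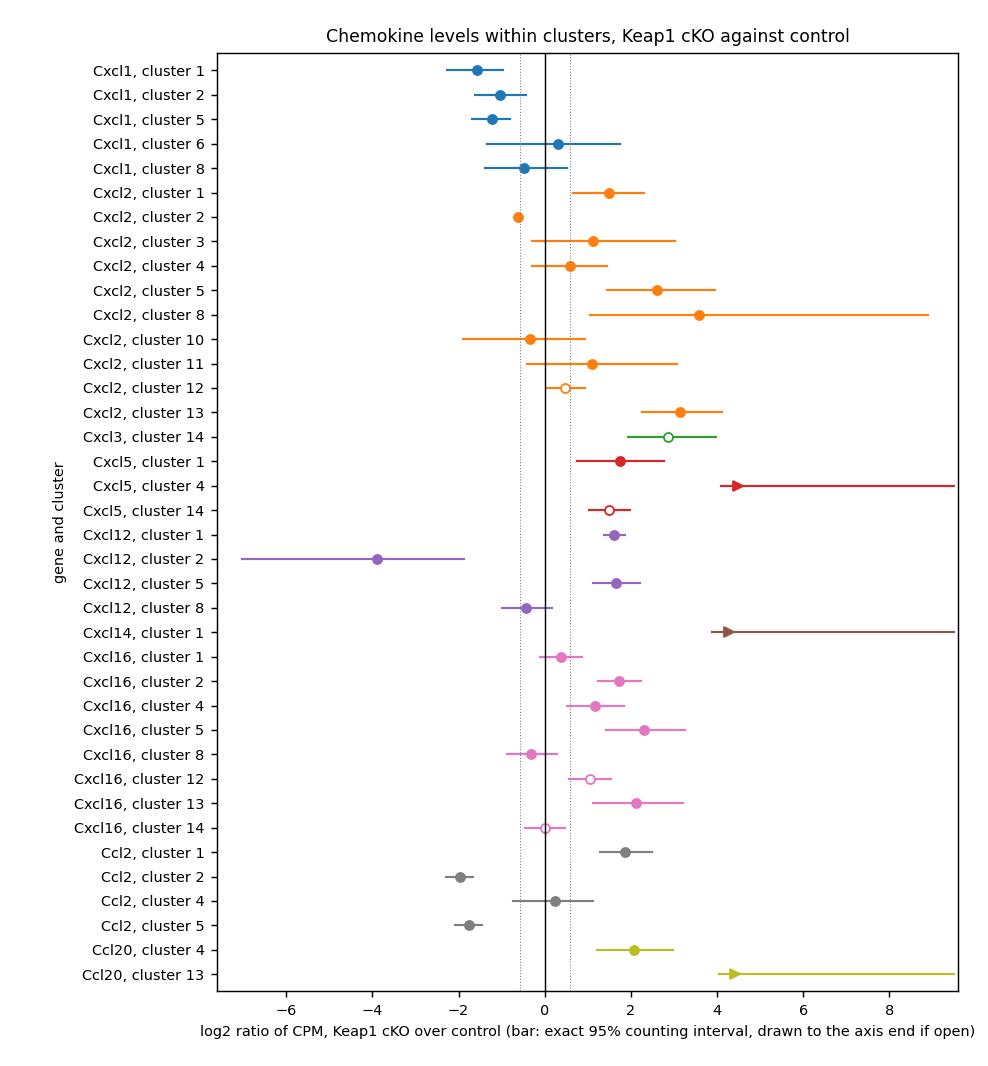
Log2 ratio of CPM, Keap1 cKO over control (horizontal axis), for each measured pair of a chemokine and a cluster, with exact 95% counting intervals. Arrowheads are lower bounds against 0 control UMIs at a floor of 3 UMIs, open circles are clusters 12 and 14, and dotted lines mark 1.5-fold. Cxcl1 lies below 0 in clusters 1, 2 and 5, Cxcl12 above 0 in clusters 1 and 5, and Ccl2 on both sides.

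In all epithelial cells together 7 members were measured, 6 of them at least 1.5-fold higher in Keap1 cKO (17.5% of all genes) and none lower (15.8%). Cxcl5 went from 3.49 to 33.3 CPM, Cxcl3 from 0.727 to 15.7, Ccl20 from 1.45 to 11.3, Cxcl16 from 10.03 to 24.96, Cxcl2 from 6.39 to 13.96 and Cxcl1 from 1.60 to 3.36. The largest epithelial cluster was basal cluster 4 in control (313 of 848 cells) and cornified cluster 9 in Keap1 cKO (140 of 422), so these sums compare different mixtures. With every cell weighted equally, which gives the shallow cells of cluster 10 as much weight as deep ones, the log2 difference of Cxcl1 was -1.80 instead of 1.07 and that of Cxcl2 was -0.55 instead of 1.13. Without the 3 highest cells of each cluster and library Cxcl1 was at -0.27. The higher epithelial sums of Cxcl1 and Cxcl2 therefore depend on the weighting, and those of Cxcl3, Cxcl5 and Ccl20 rest on the few cells given above.

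The number of cells that carried each member differed widely. The 64 control and 29 Keap1 cKO cells with the most Cxcl12 reached 50% of its UMIs, and for Cxcl16 it took 73 and 53 cells. For Cxcl1 it took 22 and 20 cells, for Cxcl2 15 and 29, and for Ccl2 5 and 13. For Cxcl3, Cxcl5, Cxcl14 and Ccl20 it took only 1 or 2 cells in either library. A ratio of the last 4 therefore compares a handful of cells.

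**Figure D5:**
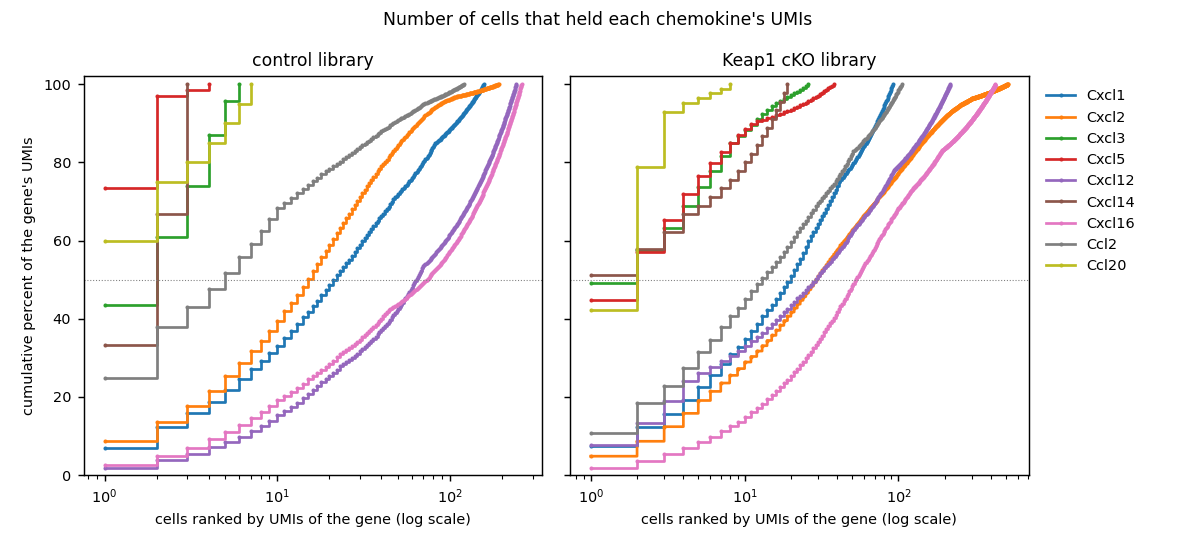
Cumulative share of each chemokine's UMIs (vertical axis, percent) over cells ranked by their UMIs of that gene (horizontal axis, log scale) in each library. Cxcl3, Cxcl5, Cxcl14 and Ccl20 reach 50% within 2 cells, whereas Cxcl12 and Cxcl16 need 29 or more.

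Co-detection within cells followed the sources. In cluster 2, 52 of 68 control cells with Ccl2 also had Cxcl2, and in Keap1 cKO 43 of 55 did, where 59.2% and 57.6% of all cluster 2 cells had Cxcl2. In cluster 12 of Keap1 cKO, 43 of the 56 cells with Cxcl2 also had Cxcl16, while 46.6% of all its cells had Cxcl16. In the fibroblasts of cluster 5, 12 of 29 control cells with Ccl2 had Cxcl1, where 16.6% of all its control cells did. In Keap1 cKO it was 3 of 16, next to 14.3% of all cells. Deeper cells show more genes at once, and these counts were not adjusted for depth.

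Of 25 other chemokines in the table, 13 were measured in epithelial cells. At least 1.5-fold higher in Keap1 cKO were 4 of them (17.5% of all genes), and 5 were that much lower (15.8%). Their median log2 difference was -0.40, against -0.02 for all genes. Cxcl17, a mucosal chemokine, was highest in cluster 14 and went from 4.21 to 40.8 CPM in epithelial cells. Ccl11, the eosinophil attractant, went from 3.63 to 14.4 CPM in epithelial cells, although over the whole library it was lower, at 46.9 and 10.8 CPM. Ccl5 and Ccl24 were lowest by epithelial difference, at 13.2 and 1.61 CPM and at 1.53 and 0.134 CPM. Their highest clusters were not epithelial: Ccl5 had 4984 and 779 CPM in T cell cluster 11, and Ccl24 303 and 40.9 CPM in cluster 2. Ccl5 was also among the 10 leading genes of shallow epithelial cluster 10. The part of other cells and of free RNA in these epithelial values was not tested. Ccl6 and Ccl9 were close to level in their highest cluster, cluster 2, at 3088 and 3288 CPM and at 1143 and 1133 CPM, whereas the platelet and macrophage chemokine Pf4 went from 1344 to 313 CPM there. Ccl21a belonged to lymphatic cluster 18, at 20487 CPM in control, where Keap1 cKO had under 20 cells.

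Among 15 other receptors in the table, 5 were measured in epithelial cells, 3 at least 1.5-fold higher (17.5% of all genes) and 2 lower (15.8%). The scavengers Ackr4 and Ackr2 were highest in fibroblasts of the Keap1 cKO library and lower there than in control: Ackr4 had 250 and 63.4 CPM in cluster 1, and Ackr2 had 152 and 47.8 CPM in cluster 5. Over the whole library Ccrl2 went from 7.34 to 25.4 CPM and Ccr1 from 6.36 to 24.7 CPM, and both were highest in cluster 17 of Keap1 cKO. Ccr9 had 14 and 105 UMIs in all.

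Of 15 genes of interleukin 17, interleukin 1 and tumour necrosis factor reception, NF-kappaB and its feedback, 8 were at least 1.5-fold higher in Keap1 cKO epithelial cells and none lower, with a median log2 difference of 0.62. Over all genes measured there, 17.5% were that much higher and 15.8% lower. Nfkbia, the NF-kappaB inhibitor that NF-kappaB itself induces, went from 156 to 239 CPM (log2 difference 0.62, interval 0.53 to 0.71). Cebpb, a factor in the interleukin 17 response, went from 173 to 219 CPM, under the 1.5-fold size. The 4 receptor chains of the list, Il17ra, Il17rc, Il1r1 and Tnfrsf1a, lay within 1.5-fold, with Il17rc at 85.1 and 81.9 CPM and Tnfrsf1a at 69.4 and 55.6 CPM.

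Genes with the pattern most like each member were found by Pearson's r of log2(CPM + 10) over 27 sums of cluster and library, which share libraries and depth. For Cxcl2 they were Wfdc17, Gpr35 and P2ry12 (r from 0.95 to 0.97), and for Cxcl3 Acod1, Retnlg and Wfdc21 (0.97 to 0.98). Cxcl12 was most like Sned1, Lrrc32 and Tspan4 (0.93 to 0.94) and Cxcl1 most like Fgfr1, Ecm1 and Fcgrt (0.89 to 0.90). Ccl2 was most like Ccl7, a further Ccr2 ligand (0.82), then Psd3 and Zdhhc14. Cxcl16 was most like Zmynd15, Tbc1d9 and Rtn1 (0.87 to 0.89), Cxcl5 most like Saa3, Vnn1 and Col6a5 (0.81 to 0.82), Ccl20 most like Fut9, Steap1 and Uox (0.85 to 0.93) and Cxcl14 most like Chtf18, Prss12 and Sftpd (0.72 to 0.76). Only sums of at least 50 cells entered, so cluster 14, with 42 control and 40 Keap1 cKO cells, was left out. That cluster held most Cxcl5 UMIs, and 117 of the 212 Keap1 cKO UMIs of Cxcl3. The r values of Cxcl3, Cxcl5, Cxcl14 and Ccl20 therefore rest on few cells, and that of Cxcl5 lacks its main source.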

How the data were processed

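Esophagus without muscle layers was dissociated with trypsin-EDTA and sequenced with 10x Genomics 3' chemistry, per the labels' protocols, 1 library per genotype. The submitters' processing notes name mm10 as the build and list, as tools, Seurat 4.0.2, R 4.1.1 and Cell Ranger 6.0.1. The deposited table holds natural log values of UMIs per 10000 plus 1, as the authors left them for 4853 cells, and 100% of positive values gave back whole UMIs within 0.01. The authors' deposited clusters and cell types were used as given, no cell was removed, and doublets were not called, so a cell with markers of several types may be a doublet.

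UMIs were summed per cluster and library and given as CPM, with exact Poisson, conditional binomial and Clopper-Pearson intervals at 95% (Python 3.11.15, scipy 1.17.1); intervals and floors cover counting error only. A count of 0 was given a floor of 3 UMIs over the sum. Ratios were computed in clusters with at least 50 cells per library, and for clusters 12 and 14 (at least 30) as an addition after seeing the data. The scripts were tested on simulated counts. Named genes were the members, their receptors, the 5 with the most UMIs and the 2 highest and 2 lowest epithelial ratios of other chemokines and of other receptors, the 4 inducing genes with the most epithelial UMIs, and the 3 most alike per member (at least 100 UMIs, sums of at least 50 cells). One gene that this rule names is not reported here. The members and lists were chosen with earlier results of these data known. Promoters came from RefSeq (GRCm38.p6), which gave an entry for 6 of 9 members.
Alternatives were other minimum UMIs, median-of-ratios scaling, equal weight per cell, cell types in place of clusters, other thinning depths, subtraction of the red blood cell level, and leaving out cells or clusters. Leaving out cluster 17, leaving out clusters 6, 10 and 16 together, and adding clusters 12 and 14 were chosen after seeing the data.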

Additional observations from a re-analysis of the deposited data

Results flagged for a closer look

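Several genes had ratios whose intervals lay on opposite sides of 0 in clusters of different cells. All are log2 differences, Keap1 cKO over control, and the difference between the clusters was not tested. Cxcl2 was at 3.57 in endothelial cluster 8 and -0.63 in cluster 2. The cluster 8 value was much smaller without the 3 highest cells, as given above, and Cxcl2 in red blood cells was at 2.09 and 5.79 CPM. Cxcl12 was at 1.66 in fibroblast cluster 5 and -3.91 in cluster 2. Ccl2 was at 1.87 in fibroblast cluster 1 and -1.98 in cluster 2. Among receptors, Ackr3 was at 2.6 in suprabasal cluster 13, where its 35 Keap1 cKO UMIs lay in 7 cells, and -1.48 in basal cluster 4. Ccr6 was at 2.45 in T cell cluster 11 and -2.36 in T cell cluster 3. Ackr1 was at 1.71 in cluster 13 and -1.54 in cluster 2, while its level in red blood cells was 2.09 and 9.10 CPM.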

How the results depend on the processing

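No paired analysis was possible because each genotype has 1 library. Of 281 member values under an alternative setting, 251 stayed within the counting interval, 27 moved beyond it and 3 reversed a difference of at least 1.5-fold. Ratios that fell to 3 UMIs or fewer in both libraries under a setting are not in this total. Median-of-ratios scaling gave 45 values, all within the interval. Without the 3 highest cells fewer values were left, of which 25 stayed, 12 moved and 1 reversed. The reversed values were Cxcl1 in epithelial cells, at -1.80 with cells weighted equally and -0.27 without the 3 highest cells, and Cxcl2 in epithelial cells, at -0.55 with cells weighted equally. The 19 pairs at least 1.5-fold higher became 12 with a minimum of 50 UMIs and 29 with no minimum above 1 UMI, and the 7 lower became 11 with no minimum. Control members with a single source went from 3 to 5 when cell types replaced clusters and to 2 without the 3 highest cells. The 5 in Keap1 cKO became 4 with cell types and with equal weights, where Cxcl3 was lost, and without the 3 highest cells, where Ccl20 was lost. Under the last setting 6 of 9 members kept their highest cluster in each library. Scaling by the median of ratios shifted cluster 9 by -0.27, cluster 10 by 0.11 and cluster 14 by 0.12 on the log2 scale, and the other clusters by under 0.1. Among member ratios it turned 1 sign, that of Cxcl16 in cluster 14, from 0.003 to -0.12. Other ratios near 0 also turned under some settings, among them Cxcl1 in cluster 8. Depth limits Cxcl3, Cxcl5, Cxcl14 and Ccl20 most, since their UMIs came from a few cells.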
